A study of Mus musculus with 24 samples.

Results

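Markers of the cells that build blood vessels, namely the endothelial lining and the mural cells (smooth muscle cells and pericytes) wrapped around it, were examined in tibialis anterior, a muscle of the lower leg, at 6 weeks of age. The members were a list of 42 genes, chosen by name: every probe whose platform gene symbol was on the list was taken. This gave 42 probes of 37 genes, of 26423 probes and 17742 named genes in the table. The endothelial and angiogenic class held 31 probes of 28 genes and the mural class 11 probes of 9 genes. Ly6c1, Nos3, Notch4, Myh11 and Mylk matched no platform symbol and were not analysed here. Probes of a gene are numbered from the brightest, and a gene with 1 probe carries no number.

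Expression was measured on 1-colour microarrays in 4 mice labelled Hira CKO (conditional knockout) and 4 control mice (strain label C57BL6/J;129S1/SvImJ), each on 3 arrays. The labels do not give the sex. Hira CKO mice were Myf6 cre/+; Hira flox/-, and controls were Myf6 cre/+; Hira flox/+. All 8 mice thus carried a cre allele at Myf6, a gene of the skeletal muscle lineage, and a floxed allele of Hira, which encodes a chaperone of the histone variant H3.3. The second Hira allele was null in Hira CKO and intact in controls, in every cell of the body. Vessel cells are not known to use the Myf6 driver, and in them the labels give a floxed allele beside a null allele in Hira CKO, against a floxed allele beside an intact allele in controls. Whether Hira was deleted in vessel cells was not tested, and fewer vessel cells and less RNA per vessel cell cannot be told apart in whole muscle.

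The Hira probe itself averaged 558 ± 38.9 in Hira CKO and 495 ± 48.9 in controls (SD, n = 4 animals each), a difference of 0.17 log2 (adjusted p 0.193 from limma; exact two-sided permutation p 0.114). It was not lower in Hira CKO. The sources do not place this probe inside or outside the floxed segment, so it checks nothing, and every direction here rests on the labels of the animals. Values are linear intensities, averaged over the 3 arrays of an animal, and differences are on the log2(intensity + 16) scale, which understates changes of dim probes. A probe was called at an adjusted p under 0.05. Skeletal muscle fibre genes were bright in every animal: Tnnt3, fast troponin T, ranged over 234374 to 267302 in Hira CKO and 234097 to 261857 in controls. Acta1, skeletal actin, fell in Hira CKO (−0.55 log2, adjusted p 0.00198). At member probes the SD between arrays of an animal had a median of 0.129 log2, and the SD between animals of a group a median of 0.17 log2. The animal was the unit of replication.

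Muscle capillaries are tubes of endothelial cells held together by junction proteins such as VE-cadherin (CDH5) and PECAM1. Their growth and survival are steered by VEGF ligands, made in large part by muscle fibres, acting on the tyrosine kinase receptors KDR, FLT1 and FLT4, and by angiopoietins acting on the receptor TEK. Endothelial PDGFB recruits pericytes through the receptor PDGFRB, and Notch ligands such as DLL4 sort sprouting from resting cells. ETS family factors, ERG and FLI1 among them, bind many endothelial promoters and enhancers, while serum response factor acts through CArG boxes in smooth muscle genes.

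Promoter sequence is shown for the members with the largest changes that passed at every probe and have an entry among RefSeq promoters of build GRCm38.p6. Each run is the 250 bases before the listed start, 5′ to 3′ on the gene's strand. Capitals mark AGGAAG, the form of the ETS core searched here, on either strand (CTTCCT where it lies on the other). The windows are chr1:169655251-169655500, plus strand for Rgs5, chr2:26580833-26581082, plus strand for Egfl7 (the first of 3 listed starts), chr5:75978456-75978705, minus strand for Kdr, chr2:32646345-32646594, plus strand for Eng, chr19:6987652-6987901, minus strand for Vegfb and chr3:137340828-137341077, plus strand for Emcn.
Rgs5: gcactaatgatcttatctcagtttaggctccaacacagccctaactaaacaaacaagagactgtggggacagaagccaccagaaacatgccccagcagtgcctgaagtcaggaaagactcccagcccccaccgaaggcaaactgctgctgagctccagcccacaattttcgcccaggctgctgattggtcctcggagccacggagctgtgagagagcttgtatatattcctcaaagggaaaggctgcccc
Egfl7: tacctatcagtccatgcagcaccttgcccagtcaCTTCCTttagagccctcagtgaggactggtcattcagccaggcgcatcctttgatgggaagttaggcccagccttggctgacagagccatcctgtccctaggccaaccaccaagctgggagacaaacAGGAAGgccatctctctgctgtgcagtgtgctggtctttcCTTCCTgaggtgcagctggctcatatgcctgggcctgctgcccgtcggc
Kdr: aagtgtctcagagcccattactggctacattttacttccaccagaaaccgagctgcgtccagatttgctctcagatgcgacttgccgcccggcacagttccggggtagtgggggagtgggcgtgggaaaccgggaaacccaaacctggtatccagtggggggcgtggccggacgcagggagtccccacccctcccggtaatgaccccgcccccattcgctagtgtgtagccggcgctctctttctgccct
Eng: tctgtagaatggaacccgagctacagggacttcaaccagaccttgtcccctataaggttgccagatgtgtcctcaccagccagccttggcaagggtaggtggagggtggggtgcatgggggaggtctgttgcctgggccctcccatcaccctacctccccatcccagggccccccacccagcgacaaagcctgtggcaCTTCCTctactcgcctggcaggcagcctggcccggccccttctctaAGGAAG
Vegfb: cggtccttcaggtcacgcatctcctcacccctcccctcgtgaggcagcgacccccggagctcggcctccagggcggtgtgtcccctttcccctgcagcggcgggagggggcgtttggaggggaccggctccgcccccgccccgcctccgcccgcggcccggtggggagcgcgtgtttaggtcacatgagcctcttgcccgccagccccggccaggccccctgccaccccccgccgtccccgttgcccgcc
Emcn: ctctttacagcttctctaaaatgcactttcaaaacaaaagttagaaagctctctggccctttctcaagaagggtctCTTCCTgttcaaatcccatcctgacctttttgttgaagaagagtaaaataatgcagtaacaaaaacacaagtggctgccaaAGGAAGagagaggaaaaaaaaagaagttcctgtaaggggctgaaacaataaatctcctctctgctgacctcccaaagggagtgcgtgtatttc
The ETS core as searched, AGGAAG, stood at 3 places in the Egfl7 window, 2 in that of Eng and 2 in that of Emcn. These letters were not in the windows of Rgs5, Kdr and Vegfb. The shorter run GGAA, or TTCC on the other strand, is in each of those windows and was not counted. The windows are therefore not shown to lack ETS sites. Egfl7 and Emcn fell in Hira CKO and Eng rose, so windows with the core belonged to genes of both directions. Of the 22 members with a promoter entry, 9 held the core, against 29.5% of 32851 promoters of the same length. The E box CANNTG was in 13 of the 22 and in 66.2% of all promoters. The CArG box was in 0 of the 22 and in 1.47% of all. The first listed start was used where a gene had several. The ETS core and the E box cannot share bases, while a CArG box can end inside an ETS core.

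Most vessel marker probes were estimated lower in Hira CKO, and the changes that passed were of moderate size. Of the 31 endothelial and angiogenic probes 7 were called lower and 2 higher, and of the 11 mural probes 2 were called lower and 0 higher, and 0 mural probes were higher at an unadjusted p under 0.05 too. Over all 26423 probes 10% were called lower and 10.5% higher, 20.6% in all. The share of endothelial and angiogenic probes called in either direction was 29.0%, and that of mural probes 18.2%, near the 20.6% of all probes. The lower calls made up 22.6% of endothelial and angiogenic probes, above 10%, and the higher calls 6.45%, below 10.5%. The mural calls were all lower, so their 18.2% also stood above the 10% of all probes called lower. At the brightest probe of each gene, 22 of 28 endothelial and angiogenic genes and 7 of 9 mural genes had a difference below 0, with medians of −0.17 and −0.13 log2, while the median over all named genes was 0.01 log2. The list was drawn up with earlier results of these data known, so these counts describe it and are no test of it.

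**Figure D1:**
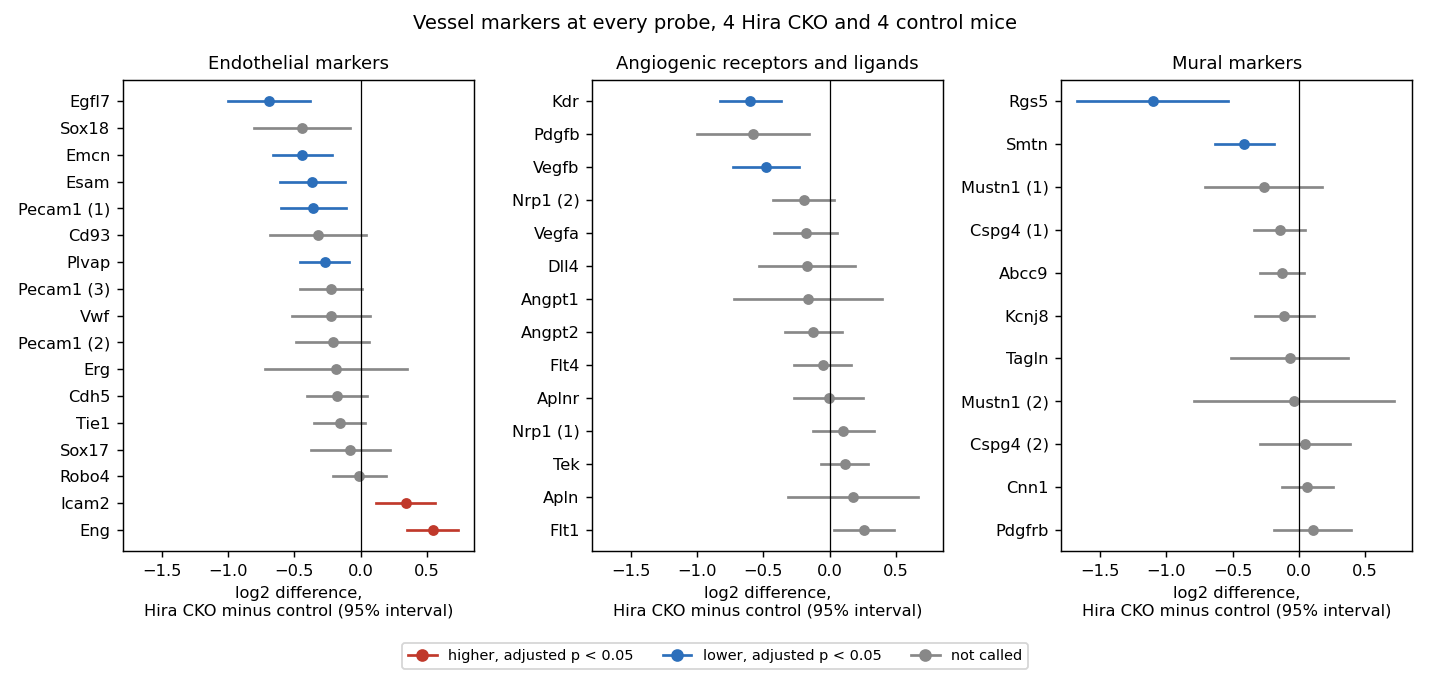
Difference between Hira CKO and control (log2, horizontal axis) with its 95% interval from limma at all 42 member probes, sorted within 3 panels. Egfl7 (−0.69) and Eng (0.55) bound the endothelial panel, Kdr (−0.60) leads the angiogenic panel, and Rgs5 (−1.11) lies farthest from 0 among mural markers, of which 9 of 11 probes were not called.

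The lower count depended on single animals. It was 4 in place of 7 for endothelial and angiogenic probes without Hira CKO animal 1, without Hira CKO animal 2 or without control animal 4. The higher count was 1 in place of 2 without Hira CKO animal 1 or 3 or without control animal 2 or 4, and 3 without Hira CKO animal 4. The mural count of 2 became 1 without control animal 2 or without control animal 3. The members' 11 calls therefore include 6 probes, of Rgs5, Egfl7, Kdr, Vegfb, Emcn and Eng, that passed in all 8 fits with 1 animal left out.

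Among endothelial surface and secreted markers, Egfl7 had the largest fall. Egfl7 encodes a factor that endothelial cells secrete into their matrix. Its intensities were 23248, 17325, 16242 and 20119 in Hira CKO animals 1 to 4, against 26971, 30147, 27990 and 38419 in control animals 1 to 4. The groups did not overlap, and Egfl7 averaged 19234 ± 3135 in Hira CKO and 30882 ± 5196 in controls (SD, n = 4 each), a change of −0.69 log2 (SE 0.139, adjusted p 0.00723).

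Emcn, the sialomucin endomucin of capillary and venous endothelium, fell by 0.44 log2 (SE 0.099, adjusted p 0.0128). It stood at 3080, 2711, 2677 and 3451 in Hira CKO, against 3983, 3699, 4470 and 3960 in controls. Every Hira CKO animal lay below every control animal, and control animal 3 was the highest.

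Esam, an adhesion molecule of endothelial tight junctions, and Pecam1 fell by similar amounts with less separation. Esam was at 5327, 5423, 6486 and 5010 in Hira CKO and at 7273, 6047, 7097 and 8194 in controls, a change of −0.36 log2 (SE 0.11, adjusted p 0.0426). Here Hira CKO animal 3 lay above control animal 2, so the groups overlapped. The call was lost without any 1 animal other than Hira CKO animal 3 or control animal 2, with adjusted p between 0.0788 and 0.0998.

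Pecam1, the classic junctional marker of all endothelium, had 3 probes. Its brightest probe was at 3025, 2830, 3955 and 3035 in Hira CKO, against 4327, 4052, 3636 and 4315 in controls, a change of −0.36 log2 (SE 0.11, adjusted p 0.0446). Hira CKO animal 3 overlapped the controls at this probe. Without any 1 animal other than Hira CKO animal 3 or control animal 3 the call was lost, with adjusted p between 0.0852 and 0.116. The dimmer probes changed by −0.21 log2 (adjusted p 0.253) and −0.22 log2 (adjusted p 0.157), neither of which passed. All 3 estimates had the same sign, and their 95% intervals overlapped, running over −0.60 to −0.11, −0.49 to 0.06 and −0.46 to 0.01 log2.

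Plvap, which forms the diaphragms of fenestrae and transcytotic vesicles, was at 70558, 76257, 65999 and 75047 in Hira CKO, against 78086, 85814, 90714 and 92552 in controls. The groups did not overlap, but the distance between the highest Hira CKO animal and the lowest control animal was small. Its change of −0.27 log2 (SE 0.082, adjusted p 0.0428) was the smallest among the called members. Only the fit without control animal 1 kept the call among the 8 that left out 1 animal, and the other 7 gave adjusted p between 0.0511 and 0.113.

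Eng and Icam2 went the other way. Eng encodes endoglin, a co-receptor for BMP9 and TGF-beta ligands on endothelium, and it had the lowest adjusted p of all members. It was at 3237, 3006, 3396 and 3665 in Hira CKO, against 2288, 2469, 2059 and 2271 in controls. All Hira CKO animals were above all controls, and the change was 0.55 log2 (SE 0.086, adjusted p 0.00209). Icam2, an endothelial ligand of leukocyte integrins, was at 2211, 1932, 2561 and 2011 in Hira CKO and 1795, 1608, 1851 and 1577 in controls, also without overlap. It rose by 0.34 log2 (SE 0.101, adjusted p 0.0381), a call lost without Hira CKO animal 1 (adjusted p 0.0871), Hira CKO animal 3 (0.0764), control animal 2 (0.0903) or control animal 4 (0.0903).

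**Figure D2:**
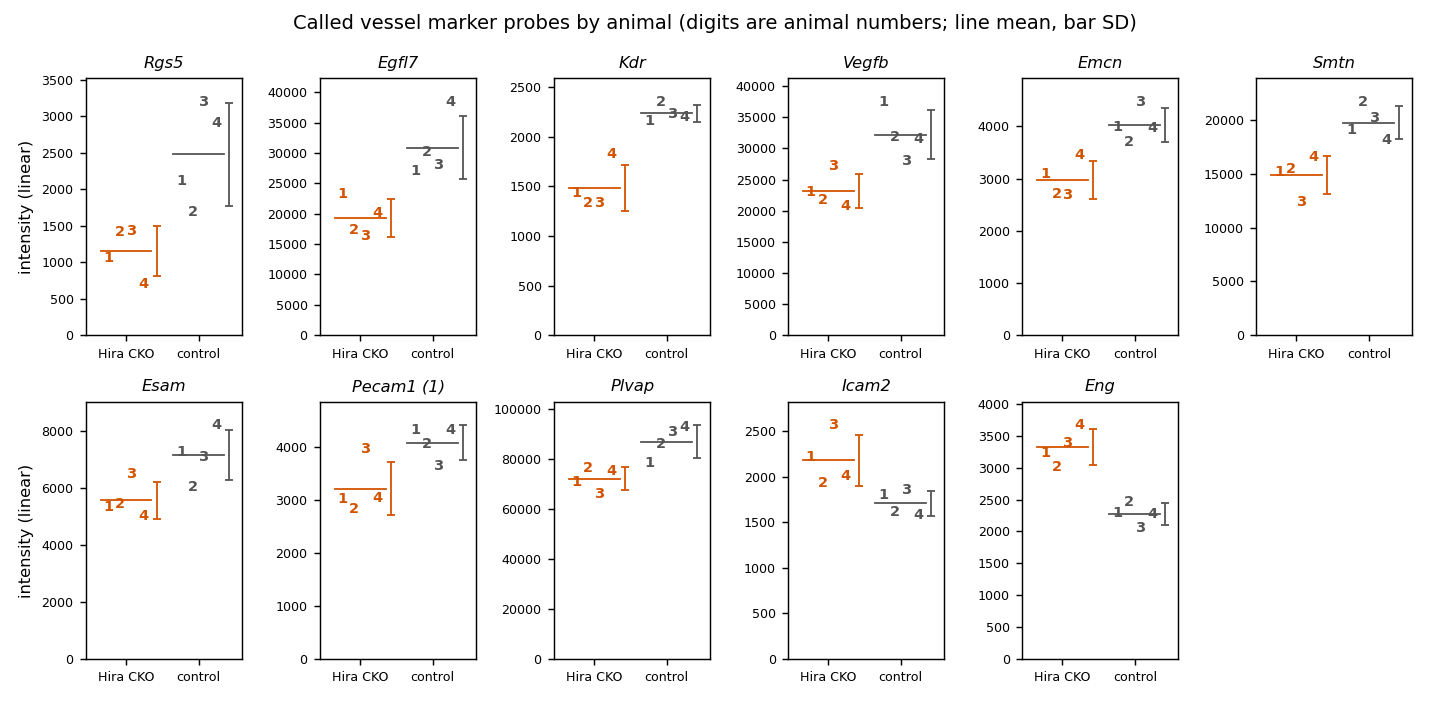
Linear intensity (vertical axes, from 0) of the 11 called probes in each animal, with Hira CKO at the left and control at the right of each panel. Digits are animal numbers at their values, horizontal lines are group means and bars the SD over 4 animals. Only in the Esam and Pecam1 panels does a Hira CKO animal, number 3, reach into the control range.

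The remaining endothelial markers did not pass, although most were estimated lower. Cdh5, VE-cadherin, was at 4480, 5084, 5394 and 5033 in Hira CKO and 5541, 5007, 5407 and 6737 in controls (−0.18 log2, 95% interval −0.41 to 0.05, adjusted p 0.247). Tie1, an orphan receptor of the angiopoietin system, was at 4885, 5019, 5113 and 5381 in Hira CKO and 5121, 5723, 5457 and 6545 in controls (−0.16 log2, adjusted p 0.224). Vwf, the clotting factor stored by endothelium, was at 2120, 1718, 2142 and 1818 in Hira CKO and 2876, 2207, 1852 and 2234 in controls (−0.22 log2, adjusted p 0.258). In each of these genes the groups overlapped, with control animal 4 highest for Cdh5 and Tie1 and control animal 1 highest for Vwf.

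Sox18, a transcription factor of arterial and lymphatic fate, was at 2566, 1892, 2306 and 2737 in Hira CKO and 2688, 3432, 2686 and 4321 in controls (−0.44 log2, 95% interval −0.81 to −0.08, adjusted p 0.082). Its relative Sox17 differed by −0.08 log2 (adjusted p 0.724). Cd93, a C-type lectin-like endothelial receptor, was at 2527, 2444, 2780 and 4295 in Hira CKO and 3380, 3358, 3981 and 3979 in controls. The high value of Hira CKO animal 4 set the spread of Cd93: over all animals the difference was −0.32 log2 (adjusted p 0.189), and without that animal −0.50 log2 (adjusted p 0.00835). Robo4, a guidance receptor of stable vessels, differed by −0.01 log2 (95% interval −0.21 to 0.19). The ETS factor gene Erg was dim, between 93.6 and 202 in Hira CKO and between 122 and 209 in controls, and below the 25th percentile of intensities on 9 of 24 arrays. Its 95% interval of −0.72 to 0.35 log2 leaves a wide range of changes possible.

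Among the receptors, Kdr, the main signalling receptor for VEGF-A on endothelium, fell clearly while the others did not pass. Kdr was at 1438, 1337, 1334 and 1827 in Hira CKO, against 2162, 2354, 2234 and 2196 in controls. The control values were tight, Hira CKO animal 4 was the highest of its group, and the groups did not overlap. Kdr averaged 1484 ± 234 in Hira CKO and 2237 ± 83.8 in controls (SD, n = 4 each), a change of −0.60 log2 (SE 0.104, adjusted p 0.00351).

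Flt1, which binds VEGF-A, VEGF-B and placental growth factor and can act as a decoy, was at 5483, 6028, 5530 and 4638 in Hira CKO and 4225, 4088, 4648 and 5063 in controls. Its estimate was above 0 (0.26 log2, 95% interval 0.04 to 0.49) and did not pass (adjusted p 0.0955), although it passed without Hira CKO animal 4 (adjusted p 0.0376). Flt4, the lymphatic VEGF-C receptor, differed by −0.05 log2 (95% interval −0.27 to 0.16). Tek, the angiopoietin receptor, was at 2071, 2240, 2458 and 2098 in Hira CKO and 1968, 2075, 1961 and 2180 in controls (0.11 log2, adjusted p 0.345). Aplnr, the apelin receptor, differed by −0.01 log2 (adjusted p 0.965).

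Nrp1, a co-receptor for VEGF-A, gave estimates of opposite sign at its 2 probes, 0.10 log2 (adjusted p 0.521) and −0.19 log2 (adjusted p 0.21), and neither passed. The brighter probe ranged over 9483 to 12231 in Hira CKO and 8974 to 10961 in controls. The dimmer ranged over 1910 to 2439 in Hira CKO and 2103 to 2705 in controls. No direction can be given for Nrp1.

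Of the ligands, Vegfb, a VEGF family member that is abundant in oxidative tissues and binds Flt1, was the only listed member to pass. It was at 22953, 21749, 27148 and 20800 in Hira CKO, against 37490, 31886, 27940 and 31556 in controls. The groups did not overlap, and the change was −0.48 log2 (SE 0.111, adjusted p 0.0136). Vegfa, the main angiogenic ligand, was at 22566, 25902, 23947 and 29593 in Hira CKO and 26188, 30855, 26248 and 32399 in controls. Its groups overlapped, and the difference of −0.18 log2 (95% interval −0.42 to 0.06, adjusted p 0.258) did not pass.

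Pdgfb, the endothelial signal that recruits pericytes, was just outside the threshold. It was at 1027, 1164, 861 and 1306 in Hira CKO and 1336, 1488, 1430 and 2433 in controls, without overlap, and the high value of control animal 4 widened the spread. The difference was −0.58 log2 (95% interval −1.0 to −0.16, adjusted p 0.055). It passed without Hira CKO animal 4 (adjusted p 0.0466) or without control animal 1 (adjusted p 0.0452). Just inside the threshold were the brightest Pecam1 probe, Plvap and Esam.

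Angpt1, the activating ligand of Tek, was at 2958, 2428, 1872 and 2040 in Hira CKO and 4303, 1749, 2104 and 2722 in controls, and Angpt2, its context-dependent antagonist, was at 633, 576, 639 and 652 in Hira CKO and 638, 821, 631 and 648 in controls. Neither passed (−0.17 log2, adjusted p 0.678, and −0.12 log2, adjusted p 0.395). The Notch ligand gene Dll4 differed by −0.17 log2 (adjusted p 0.49). Apln, the ligand of Aplnr, was dim and spread widely in Hira CKO, from 88.0 to 246, against 116 to 141 in controls (0.18 log2, adjusted p 0.605).

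Among mural markers, Rgs5, a regulator of G-protein signalling enriched in pericytes, had the largest change of all members. It was at 1062, 1416, 1428 and 703 in Hira CKO, against 2111, 1685, 3199 and 2910 in controls. The groups did not overlap, and both were spread widely, with Hira CKO animal 4 lowest and control animal 3 highest. Rgs5 averaged 1152 ± 344 in Hira CKO and 2476 ± 699.8 in controls (SD, n = 4 each), a change of −1.11 log2 (SE 0.255, 95% interval −1.67 to −0.54, adjusted p 0.0137).

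Smtn, smoothelin, a cytoskeletal protein of contractile smooth muscle, was at 15172, 15398, 12411 and 16543 in Hira CKO, against 19037, 21687, 20198 and 18108 in controls. The groups did not overlap and the change was −0.41 log2 (SE 0.101, adjusted p 0.0185). The call was lost without control animal 2 (adjusted p 0.0511) or control animal 3 (adjusted p 0.0503). Which cells of the muscle gave the Smtn signal was not tested.

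The other pericyte markers among the members did not follow Rgs5 past the threshold. Pdgfrb, the receptor for PDGF-B that defines pericytes, was at 3337, 2996, 4016 and 3368 in Hira CKO and 3870, 2934, 2584 and 3385 in controls (0.10 log2, 95% interval −0.19 to 0.39, adjusted p 0.614). Cspg4, the NG2 proteoglycan, was at 3258, 3197, 3230 and 2722 in Hira CKO and 3640, 3600, 3137 and 3348 in controls at its brighter probe (−0.15 log2, adjusted p 0.257), and differed by 0.05 log2 (adjusted p 0.864) at its dimmer probe. Kcnj8 and Abcc9, the pore and the sulfonylurea receptor of the vascular ATP-sensitive potassium channel, differed by −0.11 log2 (adjusted p 0.462) and −0.13 log2 (adjusted p 0.249). Abcc9, at 15944 to 20224 over all animals, was far brighter than Kcnj8, at 1918 to 2581. Which cells gave the Abcc9 signal was not tested. The 95% intervals of Pdgfrb, Kcnj8 and Abcc9 did not reach the change of Rgs5.

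Contractile smooth muscle markers among the members, besides Smtn, were dim or variable. Tagln, transgelin, was at 111, 95.7, 166 and 190 in Hira CKO and 138, 176, 113 and 155 in controls (−0.07 log2, adjusted p 0.831). Cnn1, calponin, lay between 39.0 and 52.6 in all animals, below the 25th percentile of intensities on 24 of 24 arrays, so its difference of 0.06 log2 (adjusted p 0.641) says little about its transcript. No member was at or below 0 on any array. Mustn1, a small nuclear protein gene that muscle fibres also express, ranged at its brighter probe over 19432 to 28903 in Hira CKO and 20316 to 41680 in controls, and at its dimmer probe over 9070 to 23987 in Hira CKO and 7603 to 21121 in controls. Neither probe passed (−0.27 log2, adjusted p 0.371, and −0.04 log2, adjusted p 0.954).

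**Figure D3:**
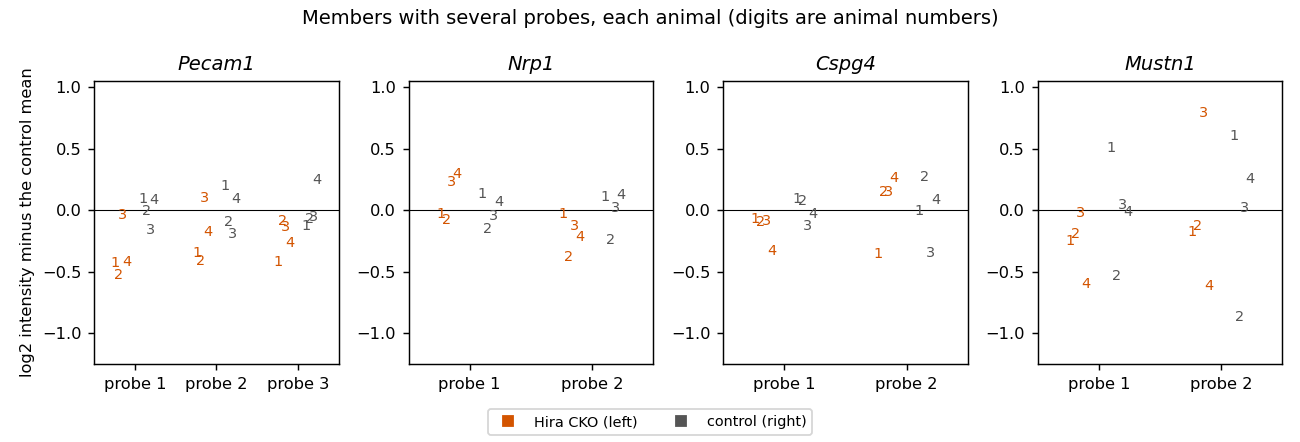
Log2 intensity minus the control mean (vertical axis) for the 4 members with several probes, with Hira CKO animals at the left and control animals at the right of each probe; digits are animal numbers. Of these 9 probes only probe 1 of Pecam1 was called, and Nrp1 and Cspg4 changed sign between their probes.

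The animals differed in how far their endothelial and angiogenic genes lay below the control mean. The median deviation over the 28 endothelial and angiogenic genes was −0.22, −0.15, −0.11 and −0.20 log2 in Hira CKO animals 1 to 4, against −0.05, −0.06, −0.06 and 0.09 log2 in control animals 1 to 4. All 4 Hira CKO medians were below all 4 control medians, and control animal 4 stood above the other controls. By gene count the groups were less apart. Of the 28 genes, 20, 20, 19 and 19 lay below the control mean in Hira CKO animals 1 to 4. In control animals 1 to 4 the counts were 18, 20, 18 and 8, so only control animal 4 stood clear of Hira CKO. Without control animal 4 the median difference of the class was −0.11 log2, in place of −0.17. Over the 9 mural genes the medians were −0.16, −0.11, −0.08 and −0.06 log2 in Hira CKO, against 0.01, 0.07, 0.04 and −0.01 log2 in controls. Over all named genes they lay between −0.00 and 0.02 log2 in Hira CKO and between −0.01 and 0.01 log2 in controls.

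Counted by separation, 2 endothelial and angiogenic probes lay higher in every Hira CKO animal than in any control, 6 such probes lay lower, and 2 mural probes lay lower. Over all probes 12.8% were separated upwards and 12.0% downwards, 24.8% in all, against 25.8% of endothelial and angiogenic and 18.2% of mural probes. With both directions pooled, the separated share of endothelial and angiogenic probes was thus near that of all probes, and that of mural probes was below it. By direction, the separated mural probes were all lower, and their 18.2% was above the 12.0% of all probes separated downwards. Endothelial and angiogenic probes split 6 lower to 2 higher, while all probes split nearly evenly.

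Further vessel genes that are not members were read at their brightest probe, on lists drawn up for this comparison, beside the 10.2% of named genes called lower and 11% called higher (21.2% in all). Of 32 measured other endothelial genes 3 were called lower and 0 higher (0 higher also at an unadjusted p under 0.05), with a median of −0.06 log2, so their lower share was near that of all genes. Rasip1, a Ras-interacting protein needed for vessel lumens, fell most: it averaged 126 ± 25.6 in Hira CKO and 842 ± 268 in controls (−2.55 log2, adjusted p 6.31e-05). Gpihbp1, which carries lipoprotein lipase across capillaries, fell by 0.52 log2 (adjusted p 0.0484) and Ecscr by 0.44 log2 (adjusted p 0.0478), and each call was lost in 6 of the 8 fits with 1 animal left out. The junction gene Cldn5 was at −0.16 log2 (adjusted p 0.34) and the ETS factor gene Fli1 at 0.09 log2 (adjusted p 0.552), neither of which passed.

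Of 25 measured other vessel signalling genes 5 were called lower and 1 higher, with a median of −0.17 log2. Efnb2, the arterial ligand ephrin-B2, had the largest change of that list: it ranged over 118 to 163 in Hira CKO and 553 to 709 in controls, without overlap (−2.06 log2, adjusted p 4.78e-06). Its venous receptor gene Ephb4 fell by 0.33 log2 (adjusted p 0.0283) and did not pass in 5 of the 8 fits with 1 animal left out. Vegfd, a ligand of Flt4, ranged over 98.3 to 128 in Hira CKO and 211 to 241 in controls (−0.83 log2, adjusted p 0.000258). Acvrl1, the BMP9 receptor that endoglin assists, ranged over 3087 to 3616 in Hira CKO and 4117 to 5075 in controls (−0.44 log2, adjusted p 0.00753), so that it fell while Eng rose. Jag2 fell by 0.47 log2 (adjusted p 0.0257) and Egln3, an oxygen-sensing prolyl hydroxylase, rose by 0.44 log2 (adjusted p 0.0338), each lost in 6 of those 8 fits. The remaining VEGF ligand genes, Pgf (−0.32 log2, adjusted p 0.0749) and Vegfc (−0.23 log2, adjusted p 0.146), did not pass.

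Of 18 measured other mural genes 6 were called lower and 1 higher, with a median of −0.20 log2. Mcam, an adhesion molecule of pericytes and endothelium, ranged over 1841 to 2741 in Hira CKO and 3110 to 3656 in controls (−0.73 log2, adjusted p 0.00343). Aspn, a matrix proteoglycan that fibroblasts also make, averaged 359 ± 70.5 in Hira CKO and 1567 ± 552 in controls (−2.06 log2, adjusted p 0.000399). The pericyte genes Higd1b (−0.56 log2, adjusted p 0.0406) and Ndufa4l2 (−0.50 log2, adjusted p 0.0398) fell too, each lost in 6 of the 8 fits with 1 animal left out. Lmod1, a contractile smooth muscle gene chosen for mention after its values were seen, fell by 0.33 log2 (adjusted p 0.00568). It was dim, at 119.7 to 123.1 in Hira CKO and 151.0 to 162.5 in controls, and passed in all 8 of those fits. Vtn fell by 0.35 log2 (adjusted p 0.0405), lost in 6 of them. The higher gene, chosen for mention after its values were seen, was Art3 (0.29 log2, adjusted p 0.0325), an ADP-ribosyltransferase that muscle fibres also express, and it did not pass in 5 of those 8 fits. Acta2, smooth muscle actin, averaged 15334 ± 2753 in Hira CKO and 19496 ± 5237 in controls and did not pass (−0.33 log2, adjusted p 0.274). Its dimmer probe was at −0.02 log2 (adjusted p 0.957).

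**Figure D4:**
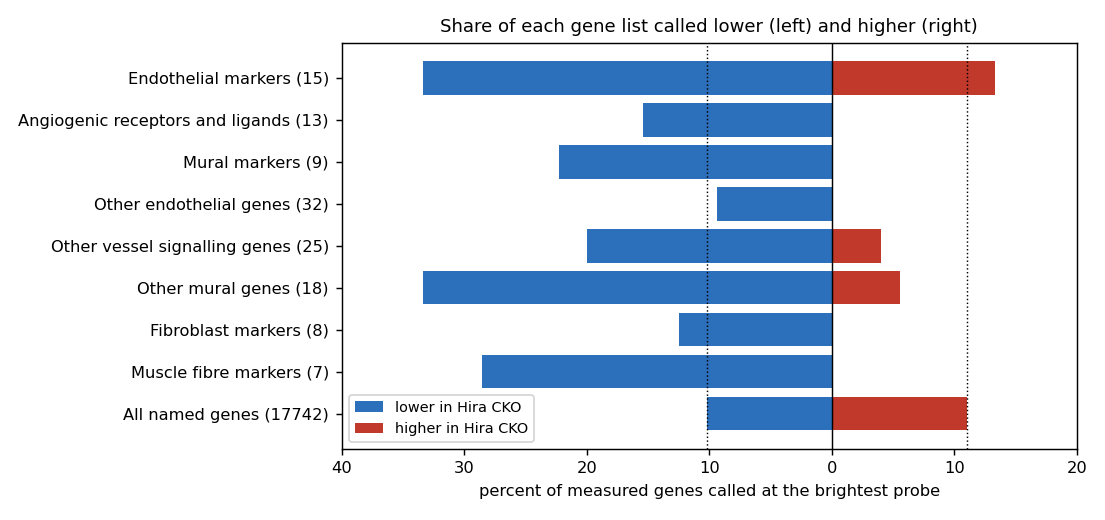
Percent of measured genes called lower (bars to the left) and higher (bars to the right) in Hira CKO at the brightest probe, by list, with the number of genes in brackets and dotted lines at the shares of all named genes. Lower shares of 33.3% for endothelial markers and for other mural genes stand beside 9.38% for other endothelial genes and 10.2% for all named genes.

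Markers of other cells in the muscle were read beside these results. Of all named genes 10.2% were called lower and 11% higher. Fibroblast markers had 0 of 8 higher and 1 lower, and 1 was higher at an unadjusted p under 0.05. Their summed intensity ranged over 131113 to 174663 in Hira CKO and 141671 to 174666 in controls. Most of that sum was Dcn, which averaged 126543 in Hira CKO and 125304 in controls. Macrophage markers had 0 of 5 called, 1 being lower at an unadjusted p under 0.05 (sums of 5027 to 6826 in Hira CKO and 4804 to 7662 in controls), and the 3 measured red cell genes had 0 called, 1 being higher at that unadjusted p (844 to 1509 in Hira CKO and 890 to 1559 in controls). For adipocyte markers 0 of 5 were called and 0 passed unadjusted, with sums of 5212 to 10375 in Hira CKO and 7041 to 20122 in controls. Schwann cell markers had 0 of 3 called and 0 passing unadjusted, with sums of 17974 to 21384 in Hira CKO and 12306 to 30179 in controls. Lymphocyte markers had 2 of 5 higher and 0 lower, with sums of 3064 to 4765 in Hira CKO and 2050 to 3305 in controls. The higher genes were Cd3e (0.48 log2, adjusted p 0.00732) and Cd79b (0.295 log2, adjusted p 0.0492). The Cd79b call was lost in 7 of the 8 fits with 1 animal left out. Cd79a, the brightest of the list, did not pass (0.72 log2, adjusted p 0.156). Ms4a1 (0.14 log2, adjusted p 0.36) and Cd3g (−0.02 log2, adjusted p 0.898) did not pass either. Satellite cell markers had 1 of 3 higher and 1 lower at an unadjusted p under 0.05, with sums of 3039 to 3363 in Hira CKO and 2742 to 3037 in controls. The higher gene was Megf10 (0.53 log2, adjusted p 0.00642). Pax7 went the other way (−0.21 log2, adjusted p 0.0551), lower in every Hira CKO animal than in any control, and Cdh15 was at −0.025 log2 (adjusted p 0.8745). Fibre markers had 2 of 7 lower, with sums of 1336882 to 1448752 in Hira CKO and 1423951 to 1655508 in controls. The lower genes were Acta1 (−0.55 log2, adjusted p 0.00198) and Ckm (−0.28 log2, adjusted p 0.0442). The Ckm call was lost in 6 of the 8 fits with 1 animal left out. The other 5 fibre markers did not pass, and Tnnc2 was estimated higher (0.17 log2, adjusted p 0.178). None of these lists held a gene at 0 in every animal. The part of these cells in the vessel marker values was not tested.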

How the data were processed

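Cy5-labelled total RNA of tibialis anterior was measured on 24 arrays of 8 mice, 3 arrays per animal and 4 animals per group. The deposited table holds a linear intensity for 26423 probes per array. Arrays had already been brought to a common scale when deposited: their medians were 431.5 to 433.5, and 81.1% of values were multiples of 1 over 24 to within 0.001, a step that averaging over 24 arrays would leave. A total of 50 values were at or below 0. Scanner, background method and software are not given in the sources used here. No detection calls came with the table, so no probe was dropped as dim, and precision is set by the number of animals and arrays. Without a slide or a scan date, a batch of arrays and the groups cannot be told apart.

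Negative values were raised to 0 and each value was converted to log2(intensity + 16). The mean of each animal's 3 arrays entered limma 3.58.1 (lmFit, then eBayes; R 4.3.3). P-values were adjusted by Benjamini-Hochberg across every probe of the table, and 0.05 was the limit for a call. The fit was tested on simulated data, in which far fewer probes changed than were called here. It recovered 36 of 67 changes of 0.5 log2, 63 of 67 of 1 log2 and 66 of 66 of 2 log2. A change of 0.5 log2 or less can thus go uncalled. Probes were named from the platform annotation (20377 with 1 symbol, 6046 unnamed here); older symbols were updated through the RefSeq gene table of GRCm38.p6. Named were all member probes that passed, the defining markers, and up to 4 genes of each further vessel list with the largest changes among those that passed; genes beyond this rule were chosen after their values were seen. Members and lists were chosen with earlier results of these data known. Alternatives covered the pseudocount (1 and 50), normalization, a filter on the 30% dimmest probes, the treatment of arrays, weights, variance models, the animal number as a block, and each animal left out. Figures were drawn with matplotlib 3.10.9.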

Additional observations from a re-analysis of the deposited data

Results flagged for a closer look

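In 3 of 84 groups of 4 animals, examined at the 42 member probes, 1 animal stood far from the other 3 relative to the whole range of its group. Chance gives this in about 1 of 20 groups. Control animal 2 was at 821 for Angpt2, with the other controls between 631 and 648. Control animal 4 was at 1750 for Dll4, with the other controls between 1173 and 1187. Hira CKO animal 4 was at 2722 at the brighter Cspg4 probe, with the other Hira CKO animals between 3197 and 3258. None of these 3 probes was called.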

How the results depend on the processing

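Under the 10 other settings that kept all animals, every class count stayed within 1.5 times its main value, and the class medians stayed between −0.18 and −0.16 log2 (endothelial and angiogenic) and between −0.15 and −0.12 log2 (mural). The endothelial and angiogenic lower calls numbered 5 with the median of the arrays and 10 with array weights or with the animal as a random block over all arrays. The animal numbers are not said to pair mice, and the deviations of same-numbered animals correlated between −0.064 and 0.296. With a replicate block the endothelial and angiogenic lower calls numbered 5, the higher calls 2 and the mural lower calls 2; Esam, Plvap and the brightest Pecam1 probe lost their calls and Pdgfb gained one. With 1 animal left out, the endothelial and angiogenic lower calls ranged over 4 to 6, the higher calls over 1 to 3, the mural lower calls over 1 to 2, the class medians over −0.22 to −0.11 and −0.17 to −0.10 log2, and the Hira difference over 0.126 to 0.237 log2. Of 752 refits of single member probes 708 kept direction and side of the threshold, or did not involve a call, 31 lost a call and 13 gained one; 0 called changes reversed. The cause of the lost and gained calls was not tested. Dim probes (Cnn1, Tagln, Erg and Apln) limit what can be said of those genes.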

Other observations

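Second probes of vessel genes outside the member list, chosen for mention after their values were seen, did not always follow the brightest. Ptprb, a receptor phosphatase that restrains Tek, fell at its dimmer probe (−0.53 log2, adjusted p 0.00816) and was at −0.18 log2 (adjusted p 0.237) at its brightest. Mmrn2, an endothelial matrix protein that binds Cd93, fell at its dimmer probe (−0.37 log2, adjusted p 0.00929) and was at −0.07 log2 (adjusted p 0.55) at its brightest. Egln1, an oxygen-sensing prolyl hydroxylase, fell by 1.76 log2 at its dimmer probe (adjusted p 2.1e-05), while the brightest was at −0.21 log2 (adjusted p 0.122). Hif1a, whose protein such hydroxylases mark for degradation, was at 0.08 log2 (adjusted p 0.519) at its brightest probe, and of its other probes 1 rose (0.25 log2, adjusted p 0.0283) and 1 did not pass (−0.10 log2).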
